A study of Mus musculus with 6 samples.

Results

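The ING family comprises 5 mouse genes, Ing1 to Ing5, chosen by name from the 18069 genes that a transcript probe with a single gene symbol represented on the array. Any transcript probe whose single annotated symbol, updated through its gene ID, was one of these names was taken, which gave 9 probes, 1 for Ing1 and 2 for each of the other genes. Total RNA from 6 cultures of early-passage mouse embryonic fibroblasts was measured on 1-colour CodeLink whole-genome arrays. The Ing1-deficient cultures, C4, C3 and B1, came from embryos in which a gene-trap cassette inserted in the Ing1 locus had inactivated it, and the wild-type ones, H2, H3 and I2, came from littermate embryos without the insertion. Each culture was made from a different embryo and hybridised to an array of its own, so each genotype had 3 biological replicates. The sources used here do not give strain, sex, embryo age or the position of the insertion within Ing1.

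ING proteins carry a PHD finger, a zinc-binding fold, near the carboxyl end, which binds H3K4me3, a trimethylated lysine on histone H3 that marks active promoters. Each ING protein sits as a reader subunit in a chromatin-modifying complex and brings that enzyme to marked nucleosomes. ING1 and ING2 belong to the Sin3-HDAC deacetylase complexes, ING3 to the NuA4/TIP60 acetyltransferase complex, ING4 and ING5 to HBO1 acetyltransferase complexes, and ING5 also to the MOZ/MORF acetyltransferase complexes. These assignments come largely from work on the human proteins.

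The promoter windows of the family show how many start sites each gene has and which short motifs lie there. RefSeq (GRCm38.p6) held windows for 5 of 5 genes, each reaching from 250 bases before to 50 after an annotated transcript start, 10 windows of 300 bases in all. Ing1 had 5 of them, with start sites spread over 2648 bases on the plus strand of chromosome 8. Printed here are the outermost windows of Ing1, the gene that carried the insertion, that of Ing5, the other member that was lower in deficient cultures, and that of Ing4, a member that did not pass the test. The Ing1 windows lie at chr8:11555512-11555811 (window 1) and chr8:11558160-11558459 (window 5), the Ing4 window at chr6:125039598-125039897 and the Ing5 window at chr1:93803715-93804014, all on the plus strand of GRCm38.p6. Sequences run 5′ to 3′, and capitals mark every match on either strand to the GC box GGGCGG, the CCAAT box CCAAT, the ETS core CGGAAG, the YY1 core AAGATGGC, the E2F site GGCGGGAA, the cyclic AMP response element (CRE) TGACGTCA, the NRF1 core CGCATGCG or the TATA box TATAAA.

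Ing1, window 1: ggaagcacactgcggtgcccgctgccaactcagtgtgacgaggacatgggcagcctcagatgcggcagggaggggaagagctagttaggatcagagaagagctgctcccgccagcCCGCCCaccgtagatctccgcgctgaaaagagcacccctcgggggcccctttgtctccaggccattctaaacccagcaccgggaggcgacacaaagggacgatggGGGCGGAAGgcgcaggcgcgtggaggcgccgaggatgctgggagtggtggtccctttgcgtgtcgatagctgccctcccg
Ing1, window 5: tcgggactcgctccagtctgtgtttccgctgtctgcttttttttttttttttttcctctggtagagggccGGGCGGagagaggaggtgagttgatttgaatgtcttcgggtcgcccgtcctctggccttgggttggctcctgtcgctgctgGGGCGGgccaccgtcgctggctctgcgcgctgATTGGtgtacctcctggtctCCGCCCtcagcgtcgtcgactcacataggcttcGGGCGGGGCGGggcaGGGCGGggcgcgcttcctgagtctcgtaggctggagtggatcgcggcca
Ing4: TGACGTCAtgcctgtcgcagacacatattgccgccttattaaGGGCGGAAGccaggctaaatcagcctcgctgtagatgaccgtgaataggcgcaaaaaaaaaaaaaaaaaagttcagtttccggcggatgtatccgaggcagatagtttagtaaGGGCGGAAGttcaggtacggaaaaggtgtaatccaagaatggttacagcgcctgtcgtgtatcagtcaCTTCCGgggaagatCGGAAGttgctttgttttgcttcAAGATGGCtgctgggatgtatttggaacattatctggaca
Ing5: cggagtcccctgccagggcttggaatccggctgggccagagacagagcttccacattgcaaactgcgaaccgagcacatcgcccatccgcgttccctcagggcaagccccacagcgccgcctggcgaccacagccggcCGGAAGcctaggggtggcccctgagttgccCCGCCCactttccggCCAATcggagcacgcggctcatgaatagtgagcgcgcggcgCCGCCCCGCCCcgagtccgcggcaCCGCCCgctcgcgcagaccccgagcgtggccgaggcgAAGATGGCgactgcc

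The ING promoters were rich in CpG, the dinucleotide in which vertebrate genomes are otherwise poor and that clusters in promoter CpG islands. The Ing5 window held 35 CpG and 71.0% G+C, Ing1 window 1 held 22 CpG and 65.3% G+C, and the Ing4 window held 16 CpG and 46.7% G+C, against medians of 7 CpG and 52.7% G+C over 32817 RefSeq windows of the same length. A GC box, the site bound by Sp1-like factors, stood in 10 of the 10 ING windows and in 35.6% of all windows. Ing1 windows 2 and 3 overlap, as do both Ing3 windows, so these share the same matches. Ing1 window 5 alone held 6 GC boxes. Among the windows printed, the CCAAT box, bound by NF-Y, stood in Ing5 and in Ing1 window 5, and it occurred in 37.4% of all windows. The ETS core, which can share 3 bases with a GC box, matched 4 times in the Ing4 window and 1 time each in those of Ing5 and Ing1 window 1, and it occurred in 16.9% of all windows. A YY1 core lay just downstream of the start in both Ing4 and Ing5 and occurred in 2.74% of all windows. The CRE lay in Ing4 and in both Ing3 windows (1.79% of all windows), the NRF1 core in Ing1 window 4 (1.86%) and the TATA box in Ing1 windows 2 and 3 (13.6%). The E2F site matched in 0 of the 10 ING windows and in 2.19% of all windows. The motifs were chosen after the sequences had been read, and a match describes letters only.

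**Figure D1:**
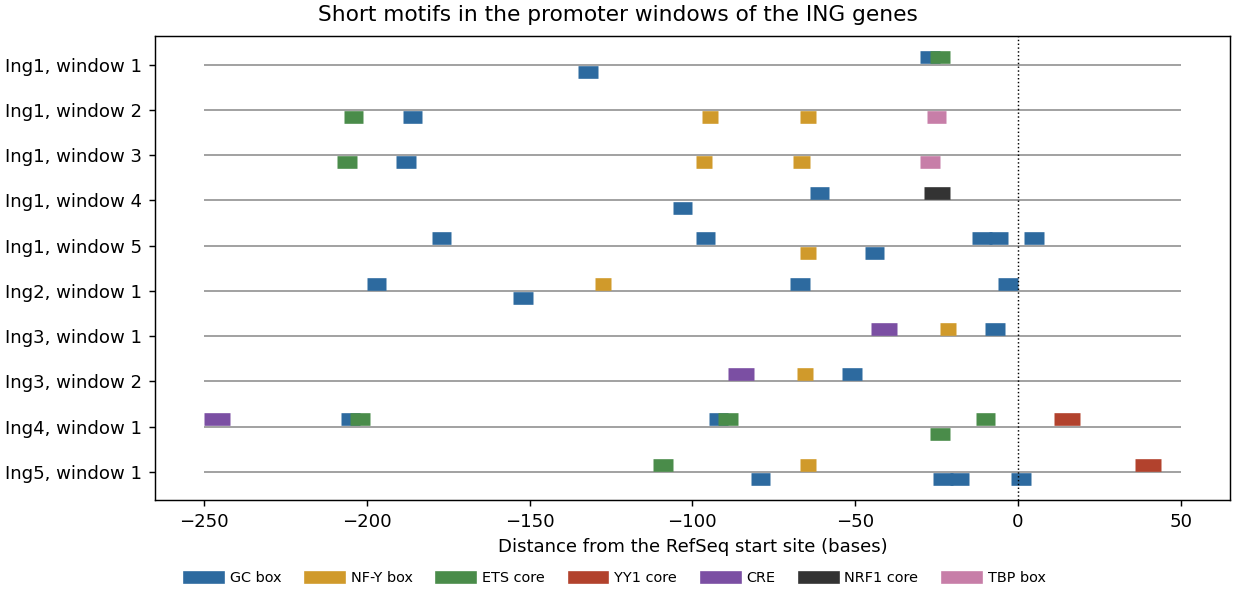
Matches to 7 short motifs (coloured bars) along the 10 promoter windows of the ING genes, drawn against the distance in bases from the RefSeq start site (dotted line). Bars above a line are on the gene's strand and bars below it on the other; the NF-Y box is the CCAAT box and the TBP box is the TATA box, and a GC box appears in every window.

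Facts of the arrays that bear on the values below were as follows. The deposited normalized intensity is a spot's signal above its local background divided by the array's median, so that the median spot is 1. Good quality flags covered 55.5% to 59.0% of the transcript probes on the Ing1-deficient arrays and 56.0% to 62.1% on the wild-type arrays, and negative control spots had a 95th percentile of 0.300 to 0.397 on these arrays. Array H3 stood apart among the wild-type arrays, since its Pearson r across probes was 0.961, 0.970 and 0.972 with the Ing1-deficient arrays C4, C3 and B1, against 0.960 with H2 and 0.975 with I2. The letters C and B occur only among deficient cultures and H and I only among wild-type cultures, so anything the letter marks cannot be told apart from the genotype. The 11 fibroblast markers had good flags on all 6 arrays, with summed intensities of 1050 to 1140 in Ing1-deficient cultures and 917 to 1100 in wild-type cultures. Of the 11, 2 were higher in limma (Thy1 and Lum), 0 were lower and 9 did not pass. Their median log2 difference, Ing1-deficient minus wild type, was 0.5. Among all tested probes 4.94% were higher. Macrophage markers, measured for 6 of 8 genes, summed to 13.3 to 42.2 in Ing1-deficient cultures and 4.73 to 8.59 in wild-type cultures. The 3 of them that were tested (C1qa, C1qb and Mrc1) were all higher. Adgre1, Itgam and Ptprc had too few good flags to be tested, and Ptprc, the pan-leukocyte CD45 gene, was flagged low on all 6 arrays. Of the 6 measured, 2 had good flags on all 6 arrays. A probe could enter the test through good flags in 1 genotype alone. Epithelial markers summed to 4.95 to 7.87 and 5.33 to 7.58, endothelial markers to 2.35 to 2.84 and 2.59 to 2.75, and liver markers to 2.36 to 14.5 and 3.99 to 18.1 in Ing1-deficient and wild-type cultures. The endothelial genes Pecam1 and Cdh5 were flagged low on all 6 arrays. The part of these shifts in the ING values was not tested, and in such cultures fewer cells of a type and less RNA per cell cannot be told apart.

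The comparison asked which genes respond to loss of Ing1, and the family was read for Ing1 itself and for its paralogs. Ing1 was 9.4-fold lower in Ing1-deficient fibroblasts. Ing5 was 1.69-fold lower, with a call near the threshold (adjusted p = 0.0467 in limma) that most alternative processings did not keep. Ing2, Ing3 and Ing4 did not pass the test. Of the 5 genes 2 were lower, 0 were higher and 3 did not pass. Ing1 carried the insertion, so its fall checks the labels, and Ing5 was the only lower gene among the other 4. Over all 19575 tested probes, those with good flags on all 3 arrays of at least 1 genotype, 1.63% were lower, 4.94% were higher and 6.57% changed in either direction (limma, Benjamini-Hochberg adjusted over all tested probes, threshold 0.05). The median log2 difference of the 5 genes, Ing1-deficient minus wild type, was -0.36, and -0.23 over the 4 genes without Ing1. The median of all tested probes was 0.02, with 5th and 95th percentiles of -0.60 and 0.84. All of the 5 estimates, that of the disrupted Ing1 included, were below 0, each from the brightest tested probe of its gene. At 3 arrays per genotype the number of arrays limited the precision.

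**Figure D2:**
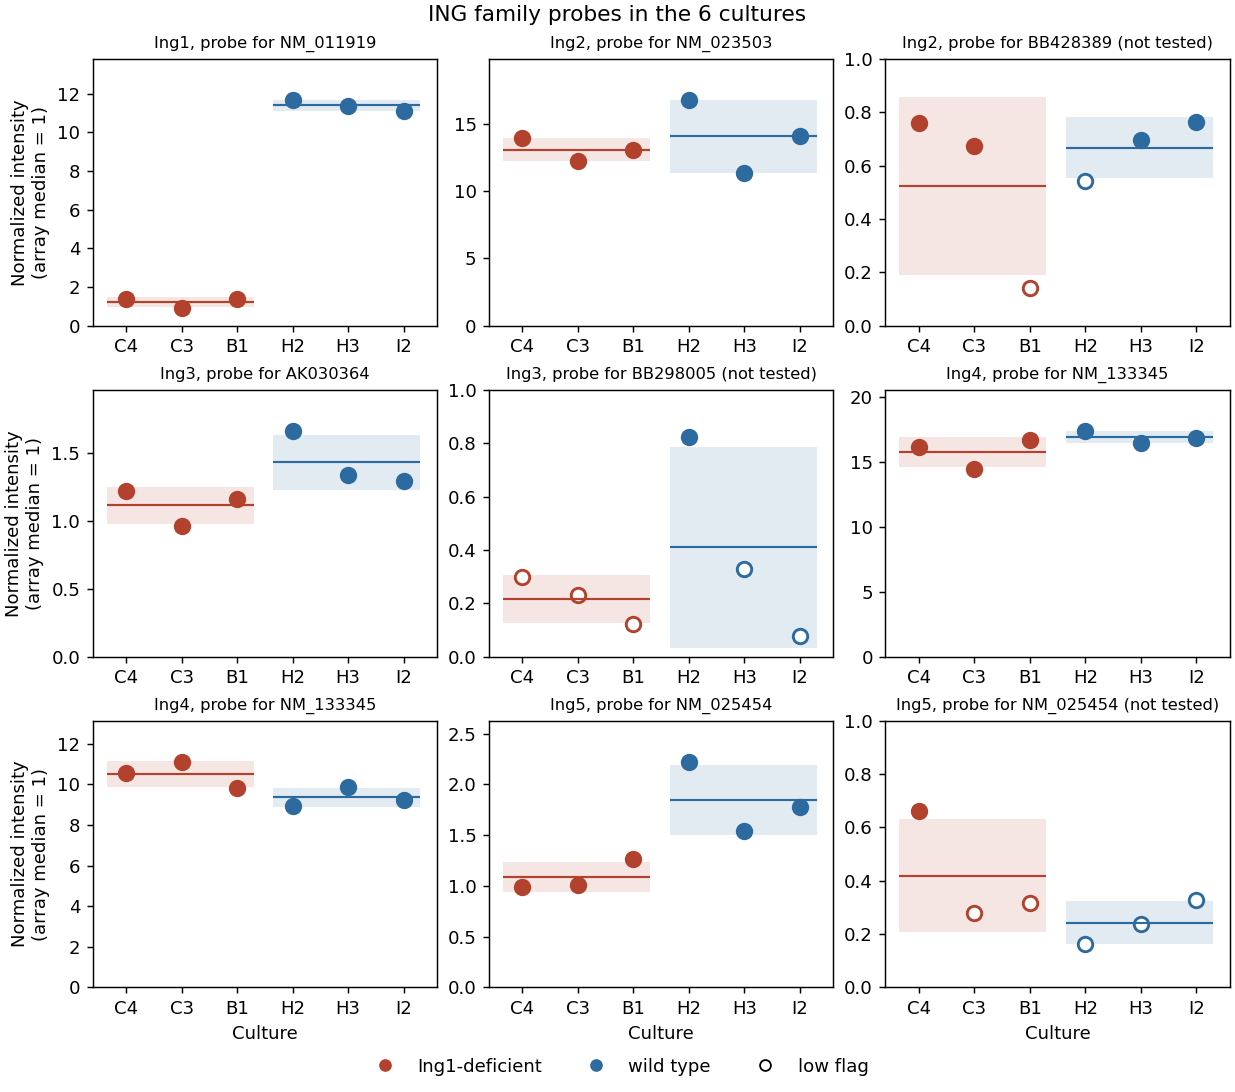
Normalized intensity (array median of 1) of the 9 ING family probes in the 6 cultures, Ing1-deficient (red) left of wild type (blue), with the mean as a line and 1 SD as a band; open circles are spots flagged low. The groups stand clearly apart for Ing1, and for Ing3 and Ing5 the tested probes do not overlap, while the tested probes of Ing2 and Ing4 overlap.

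Ing1, the founding member of the family and the gene that carried the insertion, was measured by 1 probe, designed to the transcript NM_011919. Its normalized intensity was 1.38, 0.930 and 1.39 in the Ing1-deficient cultures C4, C3 and B1, against 11.7, 11.4 and 11.1 in H2, H3 and I2, the wild-type cultures. The deficient cultures were all low and the wild-type cultures all high, with a wide gap between them. The means were 1.23 ± 0.261 and 11.4 ± 0.280 (SD, n = 3 each) in Ing1-deficient and wild-type cultures. The log2 difference was -3.23 ± 0.19 (SE), with a 95% interval of -3.66 to -2.81 and an adjusted p of 0.000287 in limma. Among the 19575 probes it ranked 2 by p and 3 by size of fall. After normexp background correction with an offset of 50 units, the log2 difference was -1.94 (adjusted p = 0.000281 in limma).

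A residual Ing1 signal remained in the deficient arrays. Above local background the spot gave 26.0, 20.5 and 27.6 scanner units in Ing1-deficient cultures, against 226, 246 and 283 units in wild-type cultures. The deficient spots kept good flags and lay 1.25, 1.21 and 1.35 times over the local noise level, against 5.85, 6.06 and 7.13 times for the wild-type spots. They also lay above the 95th percentile of the negative controls. The source of the residual signal was not tested, and whether the probe reads sequence upstream or downstream of the insertion is not known from the labels. The coefficient of variation was 21.2% among Ing1-deficient cultures and 2.46% among wild-type cultures, over 3 arrays each and with no test of that difference.

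**Figure D3:**
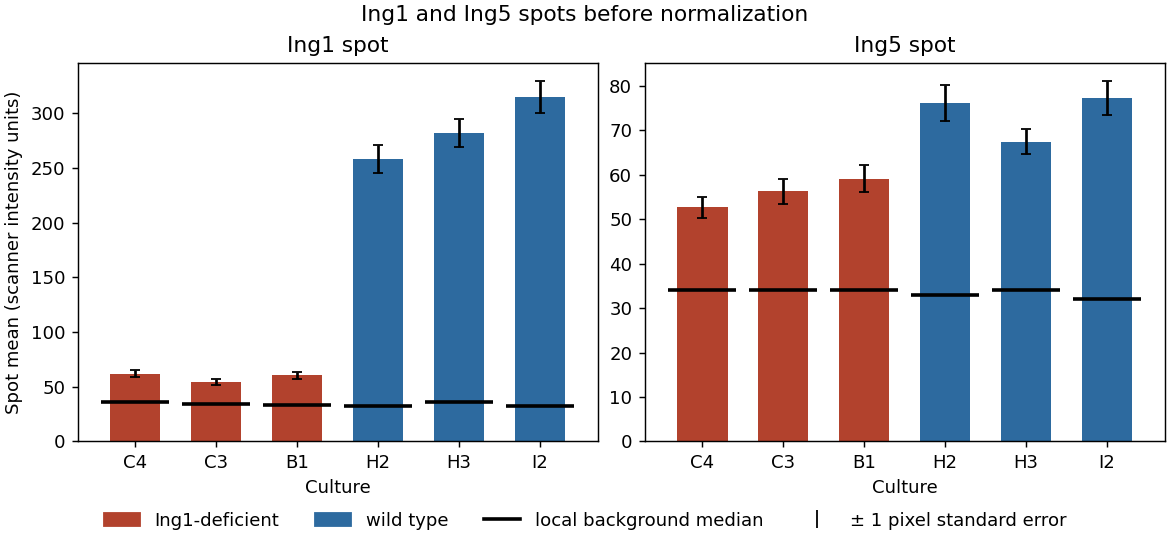
Mean intensity of the Ing1 and Ing5 spots in scanner units before background subtraction and scaling, by culture, Ing1-deficient (red) left of wild type (blue), with bars from 0 and error bars of 1 standard error over the spot's pixels. The black lines are local background medians, 32 to 36 units for Ing1 and 32 to 34 units for Ing5, and the Ing5 spots lie nearer to them than the wild-type Ing1 spots do.

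Ing5, a subunit of HBO1 and MOZ/MORF acetyltransferases, was the other member to fall. Its tested probe, designed to NM_025454, gave 0.992, 1.01 and 1.26 in the Ing1-deficient cultures C4, C3 and B1, against 2.23, 1.55 and 1.78 in H2, H3 and I2, the wild-type cultures. The highest deficient culture, B1, stayed below the lowest wild-type culture, H3, so the groups did not overlap. The means were 1.09 ± 0.151 and 1.85 ± 0.346 (SD, n = 3 each) in Ing1-deficient and wild-type cultures, and the log2 difference was -0.76 ± 0.19 (SE; 95% interval -1.18 to -0.34; adjusted p = 0.0467 in limma).

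The Ing5 signal was dim and its call lay close to the threshold. Above background the spot gave 18.7, 22.3 and 25.1 scanner units in Ing1-deficient cultures, against 43.2, 33.5 and 45.2 units in wild-type cultures, over local backgrounds of 34, 34 and 34 units and of 33, 34 and 32 units. The standard error over the pixels of a spot was 2.37 to 3.01 units in deficient cultures and 2.90 to 3.98 units in wild-type cultures, which covers measurement error within a spot only and not the spread between cultures. Ing5 passed under 5 of 14 alternative processings. Of these, the series table held the same values as the main fit, and the mean of a gene's probes used the same Ing5 probe. Another, a random block for the leading letter of the culture name, called 12903 of 19575 probes. The rest were good flags on all 6 arrays and array weights. Ing5 also passed in 1 of the 6 fits that left out an array. That fit was the one without H3, with a difference of -0.88 and an adjusted p of 0.0268. Without C4, C3, B1, H2 or I2 the adjusted p was 0.128, 0.109, 0.111, 0.161 and 0.166. Few probes of any gene passed in these fits, with 26, 386, 5, 3 and 8 called, against 2611 without H3. The difference kept its sign in all 20 of these fits, from -0.88 to -0.28, the smallest of them after normexp background correction (adjusted p = 0.102). A second Ing5 probe to the same transcript was flagged low on 5 of 6 arrays and was not tested. It gave 0.663, 0.281 and 0.316 in Ing1-deficient cultures, against 0.164, 0.238 and 0.327 in wild-type cultures, so it leaned the other way with overlapping groups around the level of the negative controls.

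Ing2, the closest relative of Ing1 and its fellow Sin3-HDAC subunit, showed no detectable difference. Its tested probe, designed to NM_023503, gave 13.9, 12.2 and 13.1 in Ing1-deficient cultures, against 16.8, 11.3 and 14.1 in wild-type cultures. The deficient values all lay inside the wild-type range, whose ends were H2 and H3. The means were 13.1 ± 0.860 and 14.1 ± 2.72 (SD, n = 3 each) in Ing1-deficient and wild-type cultures. The log2 difference was -0.09 ± 0.18 (SE), with a 95% interval of -0.49 to 0.32 and an adjusted p of 0.796 in limma, and it was 0.05 without H2. The interval leaves room for a rise or a fall of moderate size, so the values do not show equal expression. A second Ing2 probe, to the sequence tag BB428389, was flagged low on 2 of 6 arrays and not tested, with 0.760, 0.672 and 0.143 in Ing1-deficient cultures, against 0.542, 0.697 and 0.765 in wild-type cultures.

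Ing3, the reader subunit of NuA4/TIP60, was dim and leaned lower without passing. The tested probe, designed to the cDNA AK030364, gave 1.22, 0.961 and 1.16 in Ing1-deficient cultures, against 1.67, 1.34 and 1.29 in wild-type cultures. The groups did not overlap, with C4 just under I2. The means were 1.12 ± 0.138 and 1.43 ± 0.203 (SD, n = 3 each) in Ing1-deficient and wild-type cultures, and the log2 difference was -0.36 ± 0.17 (SE; 95% interval -0.75 to 0.03; adjusted p = 0.223 in limma). A second Ing3 probe, to BB298005, was flagged low on 5 of 6 arrays and not tested, with 0.297, 0.231 and 0.121 in Ing1-deficient cultures, against 0.822, 0.327 and 0.0787 in wild-type cultures. Its single good spot, on H2, was the highest of the 6.

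Ing4, the other HBO1 subunit, had a pair of bright probes to NM_133345 that leaned in opposite directions. Probe 36079 gave 16.1, 14.5 and 16.8 in Ing1-deficient cultures, against 17.4, 16.5 and 16.9 in wild-type cultures, with B1 inside the wild-type range. Probe 340020 gave 10.6, 11.1 and 9.84 in Ing1-deficient cultures, against 8.94, 9.87 and 9.24 in wild-type cultures, with B1 just under H3. Neither probe separated the groups. The log2 differences were -0.10 ± 0.15 and 0.17 ± 0.15 (SE; adjusted p = 0.699 and 0.508 in limma; n = 3 each), with 95% intervals of -0.43 to 0.22 and -0.16 to 0.49. The mean of the tested probes gave 0.03. Both intervals lie inside a doubling or a halving in either direction.

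Over the 6 tested ING probes, 3 were lower in every Ing1-deficient culture than in any wild-type culture, those of Ing1, Ing3 and Ing5, against 11.2% of all tested probes. Ing1 was the disrupted gene, so its separation says nothing of the rest of the family. The selection stated in the labels, a ratio over 2 or under 0.5 together with the methods' t-test at 0.05, took 1 of the 5 genes, Ing1, and 3.09% of all tested probes. Ing5 met the second condition but not the first, with a ratio of 0.591.

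**Figure D4:**
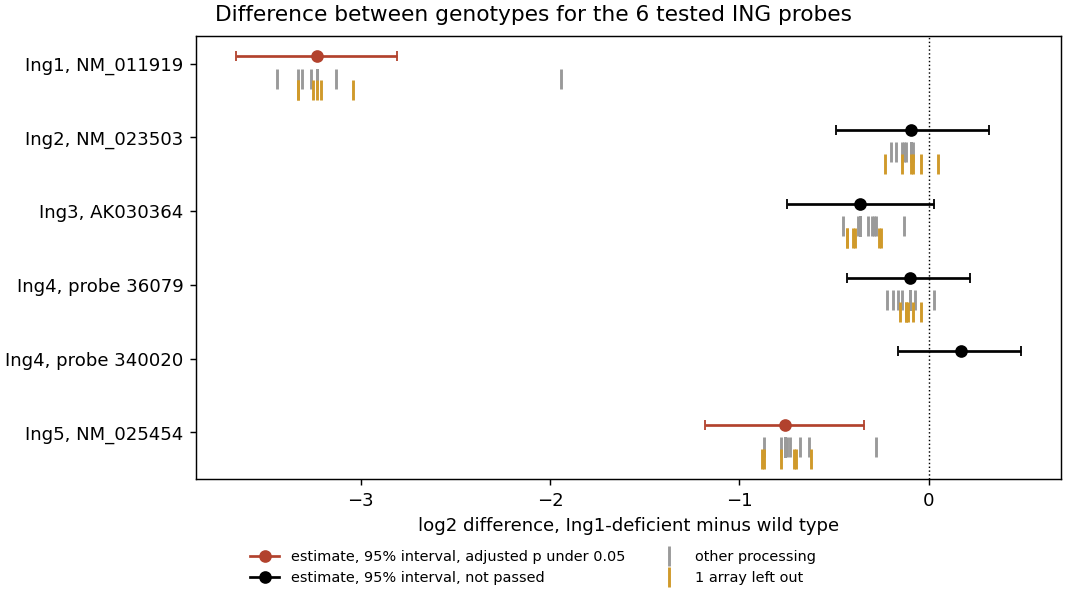
Log2 difference, Ing1-deficient minus wild type, for the 6 tested ING probes with 95% intervals from limma (red, adjusted p under 0.05), and below each the estimates under other processings (grey) and with 1 array left out (gold), drawn for the probe that represents each gene. Ing1 stays between -3.44 and -1.94 and Ing5 between -0.88 and -0.28, while the intervals of the other probes include 0.

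Ing1 and Ing5 were also set against the other members on the same array, which removes any factor that scales a whole array. The mean log2 value of Ing2, Ing3 and Ing4 was subtracted from that of each gene. For Ing1 this gave -2.24, -2.57 and -2.19 in the Ing1-deficient cultures C4, C3 and B1, against 0.57, 0.85 and 0.72 in H2, H3 and I2, the wild-type cultures. The groups were far apart, with a difference of -3.05. For Ing5 it gave -2.71, -2.46 and -2.33 in Ing1-deficient cultures, against -1.82, -2.03 and -1.92 in wild-type cultures. The groups again did not overlap, with a difference of -0.57. After normexp background correction the differences were -1.80 for Ing1 and -0.14 for Ing5. A two-sided exact permutation test of either difference gave p = 0.1, the smallest that 3 arrays against 3 can give, so this test could not pass 0.05.

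Genes whose proteins share complexes with the ING readers were examined by list, along with other PHD-finger readers that are in none of these complex lists. Of 41 complex partners 37 had a probe and 35 were tested, of which 4 were higher (11.4%), 0 were lower and 31 did not pass, against 4.94% higher among all tested probes. Their median log2 difference was 0.29. With the other readers, 44 of 53 genes were tested, of which 5 were higher (11.4%), 0 were lower and 39 did not pass. Of the 44, 15 had an unadjusted p under 0.05, as did 26.2% of all tested probes. The median log2 difference of the 44 genes was 0.26. The number called among the partners and other readers was 0 in each of the fits without C4, B1, H2 or I2. It was 2 without C3 and 10 without H3. Calls among all tested probes changed as well, to 26, 5, 3 and 8 without C4, B1, H2 or I2. They were 386 without C3 and 2611 without H3, so the change is not particular to these genes. The 3 tested macrophage markers were higher in the Ing1-deficient cultures, and their part in these counts was not tested.

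Among the partners of ING1 and ING2, 12 of 15 Sin3-HDAC genes were tested, with 2 higher (16.7%), 0 lower and a median of 0.37. The share higher over all tested probes was 4.94% and their median 0.02, and a list this short gives an imprecise share. Hdac1, a catalytic deacetylase of the complex, gave 22.9, 18.8 and 20.1 in Ing1-deficient cultures, against 7.26, 8.76 and 7.48 in wild-type cultures. The deficient cultures all stood above the wild-type cultures, with a log2 difference of 1.40 ± 0.16 (SE, n = 3 each, adjusted p = 0.00937 in limma). Arid4a, Rbbp4, Rbbp7 and Sap130 of this list separated in the same way without passing. Brms1, a Sin3-associated protein first known as a metastasis suppressor, gave 7.96, 7.04 and 7.34 in Ing1-deficient cultures, against 4.73, 4.96 and 5.09 in wild-type cultures (0.59 ± 0.14, adjusted p = 0.0453 in limma). The paralogous deacetylase Hdac2 gave 18.5, 19.2 and 21.3 in Ing1-deficient cultures, against 20.1, 17.6 and 21.3 in wild-type cultures, with overlapping groups and a difference of 0.00 ± 0.15. The scaffold genes Sin3a (0.10 ± 0.17) and Sin3b (0.54 ± 0.25) did not pass.

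**Figure D5:**
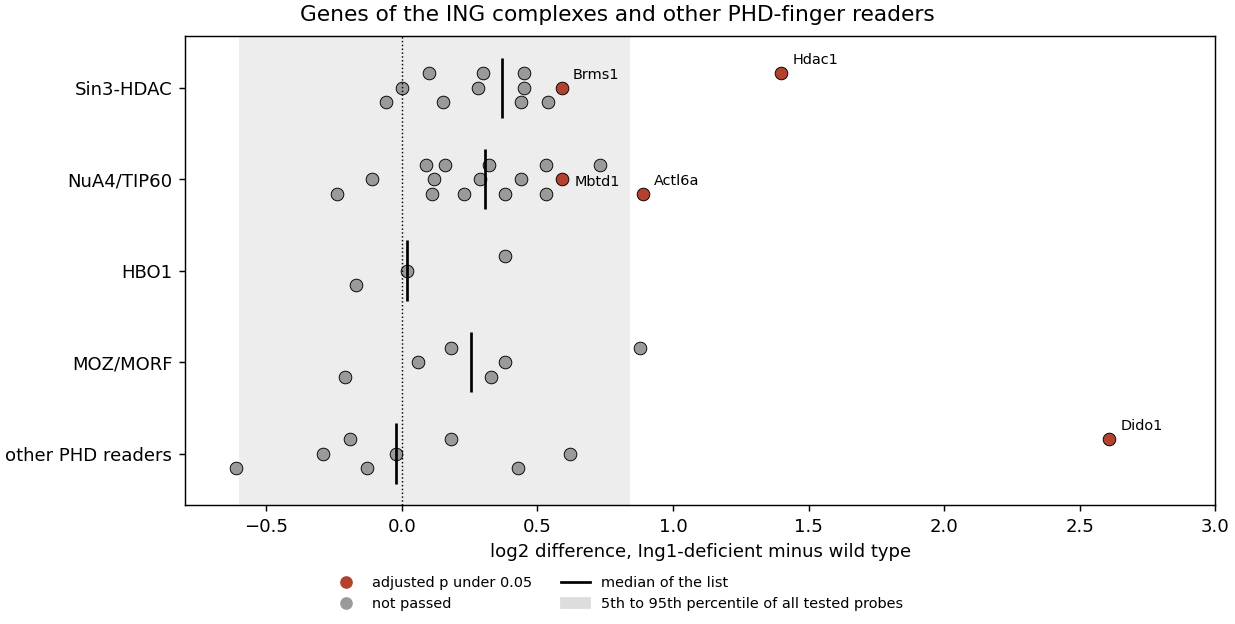
Log2 difference, Ing1-deficient minus wild type, of the tested genes in 5 lists of ING partners and related readers, with 1 point a gene (red, adjusted p under 0.05 in limma), the list median as a black line and the 5th to 95th percentile of all tested probes, -0.60 to 0.84, in grey. The 5 red genes all lie to the right of 0, and Meaf6 appears in 3 lists.

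Among the partners of ING3, 16 of 17 NuA4/TIP60 genes were tested, with 2 higher (12.5%), 0 lower and a median of 0.30. Over all tested probes 4.94% were higher and the median was 0.02. Actl6a, an actin-related subunit also found in BAF remodelling complexes, gave 12.0, 8.79 and 9.26 in Ing1-deficient cultures, against 4.70, 5.63 and 5.81 in wild-type cultures (0.89 ± 0.18, adjusted p = 0.0311 in limma). Mbtd1, whose MBT repeats bind methylated histone H4, gave 6.64, 6.51 and 7.0 in Ing1-deficient cultures, against 4.17, 4.62 and 4.62 in wild-type cultures (0.59 ± 0.14, adjusted p = 0.0458 in limma). Neither gene overlapped between the genotypes, but nor did Dmap1, Morf4l2, Mrgbp, Meaf6 and Ruvbl2 of the same list, which did not pass. The share of all tested probes that separated in this direction was not counted. Kat5, the catalytic subunit known as TIP60, gave 0.995, 1.65 and 1.13 in Ing1-deficient cultures, against 1.09, 1.05 and 1.02 in wild-type cultures, and did not pass (0.23 ± 0.20).

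The partners of ING4 and ING5 gave no call. Of 5 HBO1 genes 3 were tested. On the brightest tested probe of each gene, 0 passed an unadjusted p of 0.05 and the median was 0.02. Meaf6, a small scaffold subunit shared by HBO1, MOZ/MORF and NuA4, had a difference of 0.38 ± 0.17 (adjusted p = 0.195 in limma) and Jade1, a scaffold of HBO1, one of -0.17 ± 0.20 (adjusted p = 0.656 in limma). Kat7, the HBO1 acetyltransferase itself, had 0.02 ± 0.20 on its brighter probe and -0.74 ± 0.25 on another (adjusted p = 0.106 in limma). All 6 MOZ/MORF genes were tested, with 1 past an unadjusted p of 0.05 and a median of 0.26. That gene was Kat6a, the MOZ acetyltransferase, with 17.7, 10.4 and 12.9 in Ing1-deficient cultures, against 5.64, 10.2 and 6.71 in wild-type cultures (0.88 ± 0.26, adjusted p = 0.0778 in limma). Its other tested probe gave -0.25 ± 0.18, in the opposite direction.

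Other PHD-finger readers of methylated H3K4 outside the family gave 1 higher (11.1%) and 0 lower among 9 tested of 12, with a median of -0.02. Of all tested probes 4.94% were higher, with a median of 0.02. The higher gene was Dido1, whose protein also carries a PHD finger that reads this mark. One Dido1 probe gave 8.62, 6.37 and 8.26 in Ing1-deficient cultures, against 0.933, 2.79 and 0.771 in wild-type cultures (2.61 ± 0.42, adjusted p = 0.0216 in limma). The other Dido1 probes gave -0.09 ± 0.17 and 0.67 ± 0.26 and did not pass, so the probes of this gene disagreed. Kdm7a, a demethylase with a PHD finger, leaned lower on both of its probes (-0.61 ± 0.23 and -0.64 ± 0.18) without passing.

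The probes whose log2 values followed Ing1 and Ing5 most closely over the 6 arrays were picked by Pearson r among 13461 tested probes with 1 symbol. The points are the same 6 arrays in every case and fall into the genotypes, so r does not separate the step between genotypes from likeness within them. For Ing1 these were Slc26a9 (r = 0.998), an anion transporter gene, Cntd1 (0.988), Hsd11b1 (0.987), the enzyme that regenerates active glucocorticoid, Dclk1 (0.985), a doublecortin-like kinase, and Il17c (0.985), a cytokine. Cntd1 and Hsd11b1 each had 2 Ing1-deficient values under 0.57, the level to which dimmer spots were set, so their differences are understated. Dclk1 gave 4.30, 3.24 and 4.42 in Ing1-deficient cultures, against 7.72, 8.15 and 8.30 in wild-type cultures. Of the 5, Cntd1 (-1.12 ± 0.15), Dclk1 (-1.03 ± 0.17) and Il17c (-0.72 ± 0.14) passed the test, with adjusted p of 0.0166, 0.0223 and 0.0312 in limma.

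For Ing5 the closest were 0610038B21Rik (r = 0.997), Elfn1 (0.996), Lce3c (0.996), Hcrtr1 (0.995), an orexin receptor gene, and Trerf1 (0.994). Hcrtr1 gave 0.580, 0.618 and 0.752 in Ing1-deficient cultures, against 1.95, 1.07 and 1.37 in wild-type cultures. It was the only one of the 5 to pass (-1.13 ± 0.23, adjusted p = 0.0316 in limma).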

How the data were processed

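Total RNA of 6 fibroblast cultures was biotin-labelled and hybridised to CodeLink arrays, 1 colour and 1 culture an array, per the labels. Spots were quantified with CodeLink Expression Analysis 4.1.0.29054, per the file headers. The deposited normalized intensity equals the spot mean less the median of the local background, scaled to an array median of 1, on a linear scale, as worked out from the values; the series value table holds the same intensity (216398 of 216398 values equal within 1e-06). The deposited good or low flag marks spots above or near local noise, and masked spots (105 to 177 an array) were treated as missing. Genome build is not given in the sources used here.

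Values were log2 of the intensity, with values under 0.57 (the median over arrays of the 1st percentile among good spots) set to 0.57, which understates the difference of dim probes. The test was two-sided, with lmFit and eBayes of limma 3.58.1 under R 4.3.3, over 19575 probes with good flags on all 3 arrays of at least 1 genotype, with Benjamini-Hochberg adjustment over all of them and a threshold of 0.05. The fit was also run on simulated data drawn independently for each probe and array, so effects shared across an array were not covered. The planted changes were larger than that of Ing5. Each difference is Ing1-deficient minus wild type, with the fit's standard error after ±. Of 34967 transcript probes, 21615 had 1 symbol, 681 several and 12671 none in the platform annotation, and 21487 were matched by gene ID to RefSeq. Of several tested probes the one with the highest mean stood for the gene.

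Named were all members with every probe, each partner gene that passed or else the 2 of its list with the lowest p, and for Ing1 and Ing5 the 5 probes with the highest Pearson r. Hdac2, Sin3a, Sin3b, Kat5, Kat7 and Kdm7a were named beside them for their roles or values, after their values had been seen. The members, lists and tests were chosen with earlier results of these data known. Alternatives were normexp background (offset 50), cyclic loess or quantile normalization, values from the series table, floors of 0.01 and 1.14, no flag filter, good flags on all 6 arrays, robust fitting with a variance trend, weights per array, a random block for the leading letter (statmod 1.5.0), the methods' t-test, the mean of a gene's probes, each array left out and, chosen after seeing the data, the spot median. Each slide held 1 array, so no slide block could be fitted.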

Additional observations from a re-analysis of the deposited data

How the results depend on the processing

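No paired analysis was run, since the genotypes shared only 1 replicate number, 3 (C3 and H3), and no slide held more than 1 array. The sample names do not say what that number marks or which cultures shared a litter. Main counts were 1286 probes, 2 of 5 ING genes and 5 of 44 partner and other reader genes. Probes called numbered 576 with normexp background, 739 with quantile normalization, 750 with cyclic loess, 275 with the low floor, 191 with the high floor, 20 with no flag filter, 4720 with array weights, 12903 with the letter block (consensus correlation -0.89) and 7 with the methods' t-test after adjustment. With an array left out they numbered 3 (without H2) to 2611 (without H3), with 26 without C4, 386 without C3, 5 without B1 and 8 without I2. The share higher was 75.2% in the main fit, 60.8% with quantile normalization, 65.6% with cyclic loess, 61.0% with array weights and 55.7% with the letter block, and no scaling moved the median of all probes by over 0.1. ING genes called numbered 1 (normexp, quantile, cyclic loess, low floor, high floor, variance trend, spot median), 0 (no filter, methods' t-test), 4 (letter block) and 1 to 2 with an array left out. Partner and other reader genes called numbered 3 (quantile, cyclic loess, high floor), 2 (low floor), 0 (no filter, methods' t-test), 13 (array weights), 33 (letter block) and 0 to 10 with an array left out.

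Ing1 was -1.94 with normexp, where it passed (adjusted p = 0.000281), and stayed at -3.23 but did not pass with no flag filter (adjusted p = 0.0524), where 34967 probes were tested, or with the methods' t-test (adjusted p = 0.0772), and it ran from -3.33 to -3.04 with an array left out, passing in 6 of 6. Ing5 did not pass with normexp (-0.28, adjusted p = 0.102), quantile normalization (-0.78, 0.0507), cyclic loess (-0.73, 0.0574), the low floor (-0.76, 0.071), the high floor (-0.63, 0.124), no filter (-0.76, 0.231), the variance trend (-0.76, 0.0503), the methods' t-test (-0.76, 0.186) or the spot median (-0.75, 0.074), and ran from -0.88 to -0.62 with an array left out. Ing2 ran from -0.23 (without H3) to 0.05 (without H2), the fit in which its sign turned, and Ing4 turned to 0.03 with the mean of its probes. Ing3 and Ing4 each passed 1 of 14 alternatives, the letter block (adjusted p = 0.000169 and 0.0399 in limma). That fit called 12903 of 19575 probes, with a consensus correlation of -0.89 and letters that never cross the genotypes. A pass in it is therefore not read as a change of the gene. The causes of the differences between settings were not tested. The within-array differences of Ing1 and Ing5, -3.05 and -0.57, kept their sign under each alternative run but were smaller with normexp, at -1.80 and -0.14. The dim Ing3, Ing5 and deficient Ing1 spots lay close to local noise, which limits the precision of their differences.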

Other observations

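The genes that neighbour the ING loci were looked at after the members' values had been seen. For each member the nearest protein-coding gene on either side with a tested probe was taken in the order of the RefSeq table, 10 genes in all, of which 1 was called, against 6.57% of all tested probes in either direction. That gene was Cars2, the mitochondrial cysteinyl-tRNA synthetase, which neighbours Ing1. It gave 2.80, 2.12 and 1.81 in the Ing1-deficient cultures C4, C3 and B1, against 0.990, 1.2 and 0.941 in H2, H3 and I2, the wild-type cultures. The groups did not overlap, with a log2 difference of 1.09 ± 0.20 (SE, n = 3 each, adjusted p = 0.0271 in limma). How many of all tested probes separated in this direction was not counted. Ankrd10, on the other side of Ing1, gave 7.41, 4.85 and 5.71 in Ing1-deficient cultures, against 6.77, 4.53 and 6.0 in wild-type cultures, with overlapping groups (0.05 ± 0.21).

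The neighbours of Ing5 did not pass. Dtymk, the thymidylate kinase, gave 50.1, 31.9 and 35.1 in Ing1-deficient cultures, against 28.2, 20.3 and 23.0 in wild-type cultures (0.70 ± 0.21, adjusted p = 0.0798 in limma), and D2hgdh had a difference of 0.44 ± 0.22. The neighbours of Ing2, Ing3 and Ing4 had differences of -0.27 to 0.52, and none of them passed in limma, where 1 of these 6 had an unadjusted p under 0.05 (Rwdd4a beside Ing2, 0.44 ± 0.18), against 26.2% of all tested probes. Of the 10 neighbours 2 had differences below 0.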
